A study of Drosophila melanogaster with 3 samples.

Results

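Ugalt, CG14100, Art3, CenG1A, PNPase, CG11050, Lk6 and CG1888 lie at the highest sites bound by the zinc finger protein CG5245 in fly embryos. These 8 genes, of 18164 annotated on the 6 main chromosome arms, were selected on the signal of their peaks, and they account for 8 of the 15 strongest peaks of the authors' reproducible set. Signal and rank therefore describe the genes and carry no test. The data were chromatin immunoprecipitation followed by sequencing (ChIP-seq) from 1 group of Drosophila melanogaster, with 3 biological replicates. The flies were a transgenic line stably expressing CG5245 with eGFP, a green fluorescent protein, joined to its C terminus. Chromatin came from whole embryos of 0 to 16 h, male and female pooled, and was sonicated to a size range of 200 to 800 bp. The description in the labels gives the precipitating antibody as anti-GFP, while the antibody field reads CG5245. The labels do not say whether the native CG5245 gene was still present, and whole embryos mix all cell types. A control experiment is named in the labels and was not analysed here, and no read counts are in the lists, so the depth is unknown.

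Proteins with C2H2 zinc fingers commonly bind DNA through these small folded units, each of which contacts a few neighbouring bases. Transcription begins at the transcription start site (TSS), and the core promoter around it is where RNA polymerase and the general factors assemble. Fly genes are often packed head to head, so that 1 stretch between divergent TSSs can serve both neighbours. The 8 genes have unlike roles. Ugalt transports UDP-galactose into the Golgi apparatus, where it serves glycosylation. Art3 is a protein arginine methyltransferase, CenG1A is a GTPase-activating protein for Arf GTPases of membrane traffic, and PNPase is a ribonuclease that acts on mitochondrial RNA. Lk6 is a kinase that phosphorylates the cap-binding translation factor eIF4E. CG14100, CG11050 and CG1888 carry systematic names, and no role is given to them here.

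The sequences at the summits are shown because they are the DNA at the point of highest enrichment of each peak. A summit is the base of highest enrichment that the authors' lists give for a peak. Each sequence is the plus strand of assembly dm6 within 50 bp of the summit, less any base annotated as untranslated exon, and was read from the RefSeq Release 6 genome. The stretches are chrX:2703853-2703937 for Ugalt, chr3L:19590570-19590670 for CG14100, chr3R:15229465-15229565 for Art3, chr2L:13835410-13835510 for CenG1A, chr3R:31404605-31404652 for PNPase, chr2L:6612676-6612776 for CG11050 and chr3R:11760996-11761096 for Lk6. Capitals mark words of 8 bases, on either strand, that 3 of the windows of 101 bp share.
Ugalt: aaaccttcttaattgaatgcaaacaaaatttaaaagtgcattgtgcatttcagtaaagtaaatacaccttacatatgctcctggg
CG14100: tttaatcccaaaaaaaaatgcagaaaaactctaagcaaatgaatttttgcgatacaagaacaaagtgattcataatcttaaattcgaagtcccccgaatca
Art3: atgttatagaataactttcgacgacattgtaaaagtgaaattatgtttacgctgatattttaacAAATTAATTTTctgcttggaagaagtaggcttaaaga
CenG1A: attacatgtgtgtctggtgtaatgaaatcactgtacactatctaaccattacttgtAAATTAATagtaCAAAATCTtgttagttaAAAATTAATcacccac
PNPase: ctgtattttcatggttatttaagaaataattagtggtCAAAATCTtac
CG11050: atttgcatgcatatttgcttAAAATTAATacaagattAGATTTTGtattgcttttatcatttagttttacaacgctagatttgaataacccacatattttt
Lk6: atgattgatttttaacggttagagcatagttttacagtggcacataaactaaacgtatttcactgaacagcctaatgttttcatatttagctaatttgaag

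No sequence word was common to all of these windows. Of all words of 8 bases, 27 occurred in at least 2 of the 8 full windows, 3 occurred in 3, and 0 occurred in 4. AAAATTAA and AAATTAAT, which overlap each other, were both in the windows of Art3, CenG1A and CG11050. AAAATTAA was in 4.58% of all reproducible summit windows, 2.08% of windows 500 bp to either side and 2.86% of windows at an equal number of the lowest-ranked candidates. AAATTAAT was in 3.19% of the summit windows. Of the 100 strongest peaks, which include those of these genes, AAAATTAA was in 7% and AAATTAAT in 8%.

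Another shared word, AGATTTTG, was in the windows of CenG1A, PNPase and CG11050. It lay 2 to 9 bases from the PNPase summit, 18 to 25 bases from the CenG1A summit and 13 to 6 bases before that of CG11050. Over the whole set it was in 0.926% of summit windows, or 34 peaks, and in 0.368% of the flanking windows. Of the 100 strongest peaks 4 held it, and 3 of those 4 are these genes. The words were picked from the windows themselves, so these shares are a description.

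Known promoter motifs were counted beside their share of all summit windows. Of 11 motifs searched on both strands within 50 bp of the summit, the Initiator TCAGT was in 3 of 8 windows. Those were the windows of Ugalt, Lk6 and CG1888, against 18.4% of all reproducible peaks and 21% of the 100 strongest. Within 25 bp of the summit it was in 2 of 8 windows against 9.86%, and within 100 bp in 5 of 8 against 36.3%. The matches within 50 bp lay 15 to 19 bases from the Ugalt summit, 11 to 15 from that of Lk6 and 45 to 49 from that of CG1888. All 3 were farther upstream than these summits, which lay 35, 967 and 225 bp upstream of the nearest TSS of the gene. None was at an annotated TSS of its gene, and those of Ugalt and CG1888 were on the opposite strand to the gene. CGATA, a motif of the insulator protein BEAF-32, and the run AAAAAA were in the CG14100 window only, against 16.6% and 24.8% of all summit windows. GATAA, the motif of GATA factors, was in the CG11050 window only, against 22.9%. The DREF motif TATCGATA, the M1BP motif GGTCACAC, the E-boxes CAGCTG and CACGTG, the Zelda motif CAGGTA, the GAGA factor motif GAGAG and the TATA box TATAAA matched 0 of the 8 windows. Over all summit windows TATAAA was in 18.9%, GAGAG in 10.2%, CAGCTG in 4.06%, CAGGTA in 2.10%, TATCGATA in 1.88%, CACGTG in 0.954% and GGTCACAC in 0.899%. With 8 windows, most of these shares come to at most 1 match. A missing match says only that these letters are not in the window.

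The other reproducible peaks supplied words too. The 10 words of 8 bases that were most enriched at summits over flanks, found with peaks within 1000 bp of the 8 summits left out, consist only of A and T. Any of them was in 31.6% of summit windows and 14.5% of flanking windows, and in 2 of the 8 windows here, where Ugalt holds ATTTAAAA and CG11050 holds AAAAATAT. With words of 7 bases chosen the same way, 7 of the 8 windows held any of the 10 words, against 56.1% of summit windows, so the count lay below the share of the set with the longer words and above it with the shorter ones. A run of 4 C or 4 G, counted after the windows were seen, was in 3 of 8 windows (Ugalt, CG14100 and CG1888). Its shares were 18.0% of all summit windows, 29.5% of flanking windows and 28% of the 100 strongest peaks.

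The summits were rich in A and T. The A+T share of the 101 bp window was 64.4% at Ugalt, with 43.6% and 63.4% at 500 bp to the left and right. CG14100 had 69.3%, Art3 72.3% and CenG1A 71.3%. PNPase had 66.3%, with 38.6% and 53.5% in its flanks. CG11050 had the highest share, 76.2%, between a flank of 78.2% and one of 35.6%. Lk6 had 69.3%, with 58.4% on both sides, and CG1888 had the lowest, 60.4%. The summit exceeded both flanks at 6 of 8 genes, all but CG11050 and CG1888, against 58.7% of all reproducible peaks. The median was 65.3% over all summit windows, with quartiles of 58.4% and 71.3%, so Art3 and CG11050 lay above the upper quartile and none of the 8 below the lower. Over the 100 strongest peaks the median was 68.3%, with quartiles of 60.4% and 72.3%. Against those, CG11050 alone lay above the upper quartile, Art3 was at it and CG1888 was at the lower.

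**Figure D1:**
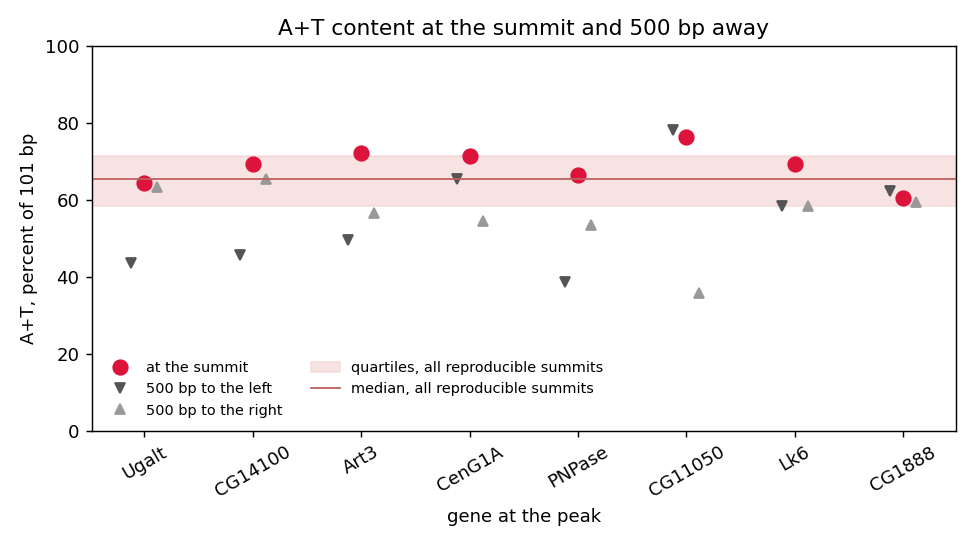
A+T content (percent of 101 bp, vertical axis) at the summit of each gene's strongest peak (red circles) and in windows 500 bp to the left and right on the plus strand (triangles). The line and band give the median and quartiles of all reproducible summit windows; CG11050, at 76.2%, is the highest point at a summit and CG1888, at 60.4%, the lowest.

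At 6 of the 8 genes the strongest peak was a promoter peak, with its summit at most 500 bp from 1 of that gene's TSSs. The exceptions were CG11050 and Lk6, whose strongest peaks lay in introns. Of all reproducible peaks, 49.0% had a summit at most 500 bp from any TSS. That share includes intergenic peaks, whereas a gene's strongest peak was sought only inside the gene or within 500 bp of its TSSs. Of the 7 other peaks among the 15 strongest, those at px, Chro, ph-p, mRpL41 and CHMP2B were also that near to a TSS. The peaks in ush and near lncRNA:CR45643, at 1367 and 907 bp, were not. The summit was upstream of the nearest TSS of the gene in 7 of 8, all but CG11050, against 62.4% of all reproducible peaks. Over the 1799 promoter peaks of the set the median offset was −95 bp, with quartiles of −188 and −27 bp, where negative values are upstream.

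Ugalt had the highest signal of the set, 2002. Signal is a score from the authors' peak calling, used here within a list only. Ugalt (FBgn0024994) lies on the minus strand of X from 2701124 to 2703852, and the summit at 2703887 was 35 bp upstream of its outer TSS and 142 bp upstream of the inner one. The replicate signals were 714, 645 and 654, and the peak ranked 1 in each of the 3 lists. The replicate summits had offsets of −41, −42 and −22 bp, with a mean of −35 ± 11.3 bp (SD, n = 3). The divergent neighbour eIF2Bbeta, a subunit of the exchange factor for eIF2, starts 684 bp from the summit and so fell outside the promoter limit of 500 bp.

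CG14100 (FBgn0036889, minus strand of 3L from 19589072 to 19590524) followed with a signal of 1759 and rank 2. Its replicate signals were 655, 565 and 545, at ranks 3, 3 and 2. The summit at 19590620 was 96 bp upstream of the single TSS, outside any gene, and the replicates placed it at −93, −93 and −108 bp. No other gene started within 1000 bp of this summit.

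Art3 (FBgn0038306, minus strand of 3R from 15227605 to 15229408) had a signal of 1335 and rank 8. The replicates gave 502, 483 and 360, at ranks 8, 7 and 8. The summit at 15229515 lay between Art3 and the divergent gene mRpS10, which encodes a protein of the small mitochondrial ribosomal subunit. It was 107 bp upstream of the Art3 TSS and 150 and 187 bp upstream of the mRpS10 TSSs, in an interval of 257 or 294 bp between starts. The replicate offsets from Art3 were −108, −112 and −104 bp, so in every replicate the summit was nearer to Art3 than to mRpS10.

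CenG1A (FBgn0028509, plus strand of 2L from 13835564 to 13898712) had a signal of 1213 and rank 9. Its replicate signals were 475, 407 and 339, and it ranked 10 in each replicate. The summit at 13835460 was 104 bp upstream of the most upstream of 3 CenG1A TSSs and 388 bp from the TSS of mRpS23, another gene of the small mitochondrial ribosomal subunit, which runs the other way. The starts of this pair are 492 bp apart, and the summit lay between them. The replicates placed it at −104, −109 and −80 bp from CenG1A. Art3 and CenG1A were thus 2 of 8 with the TSSs of 2 protein-coding genes within 500 bp of the summit, against 18.2% of all reproducible peaks.

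PNPase (FBgn0039846, minus strand of 3R from 31401560 to 31405452) had a signal of 1170 and rank 11. Its replicate signals were 473, 373 and 325, at ranks 11, 13 and 12. The gene has 3 TSSs, and the summit at 31404640 fell among them, 72 bp upstream of the innermost, 100 bp downstream of the middle one and 812 bp downstream of the outermost. The base itself is intronic. The replicate offsets from the innermost TSS were −73, −91 and −79 bp (mean −81 ± 9.17 bp, SD, n = 3). Gprk2, a kinase of G protein-coupled receptors on the opposite strand, starts 605 bp from the summit, between the outermost and the middle TSS of PNPase.

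CG1888 (FBgn0033421, minus strand of 2R from 9541947 to 9548135) had the lowest signal of the 8, 1072, at rank 15. Its replicate signals were 418, 369 and 292, at ranks 18, 14 and 18. The summit at 9547183 was 225 bp upstream of an internal TSS and 952 bp downstream of the first, within an exon annotated as 5′ untranslated. The replicate offsets were −217, −221 and −239 bp. With the most upstream TSS of each gene alone, CG1888 and PNPase no longer counted as promoter peaks and 4 of 8 did.

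CG11050 (FBgn0031836, plus strand of 2L from 6611011 to 6617117) had 2 reproducible peaks of very different height. The strong one had a signal of 1365 at rank 7, with replicate signals of 487, 486 and 393 at ranks 9, 5 and 6. Its summit at 6612726 was in an intron, 1039 bp downstream of the nearest of 3 TSSs, and the replicates placed it at 1041, 1033 and 1024 bp. The peak nearest to a TSS had its summit at 6610864, 147 bp upstream of the first TSS, with a signal of 151 and rank 1765. The summits of the pair are 1862 bp apart, and the promoter peak had 11.1% of the signal of the intronic one.

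Lk6 (FBgn0017581, minus strand of 3R from 11750931 to 11764457) had a signal of 1171 at rank 10. The replicates gave 433, 402 and 325, at ranks 13, 11 and 13. The summit at 11761046 was in an intron, 967 bp upstream of the internal TSS and 3411 bp downstream of the first. The replicate offsets from the internal TSS were −971, −974 and −979 bp. No reproducible summit lay within 500 bp of either Lk6 TSS.

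**Figure D2:**
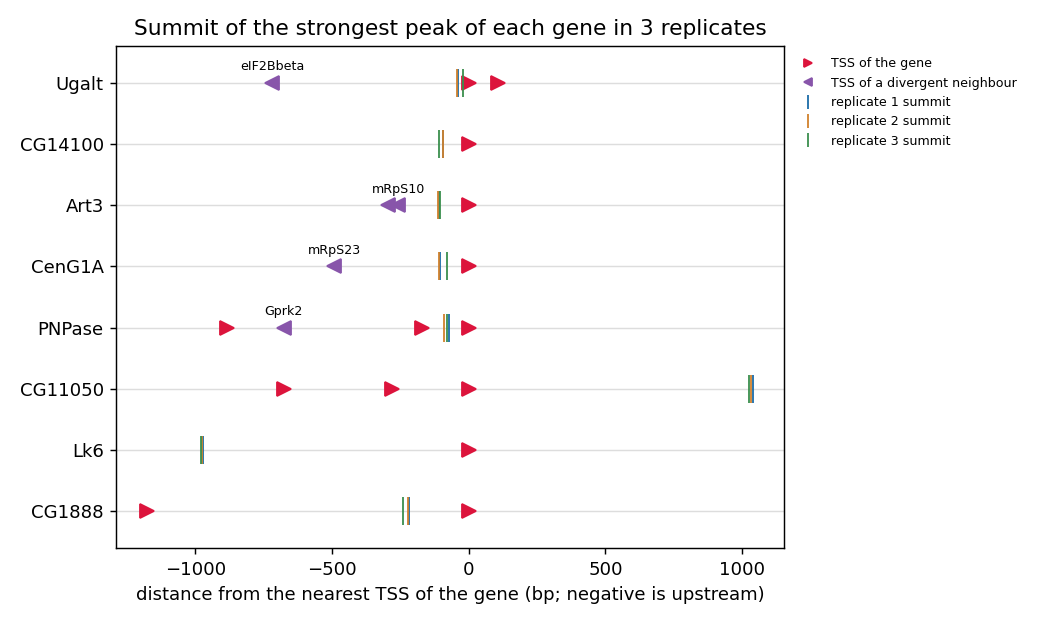
Position of the summit in each replicate (vertical ticks) relative to the TSS of the gene nearest to it (horizontal axis, bp, with the gene's direction to the right). Red triangles are TSSs of the gene and purple triangles those of divergent neighbours; a TSS more than 1500 bp away, as for Lk6 and CenG1A, is outside the plot. The ticks of a gene lie within 8 to 29 bp of each other.

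The replicates placed these summits close together. The 3 replicate summits spanned 20 bp at Ugalt, 15 bp at CG14100, 8 bp at Art3 and Lk6, 29 bp at CenG1A, 18 bp at PNPase, 17 bp at CG11050 and 22 bp at CG1888. The median span was 47 bp over the 3618 reproducible peaks with a candidate in every replicate, with quartiles of 25 and 86 bp, and 20.5 bp over the 100 strongest.

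Relative to Ugalt in the same list, the order of the genes was only partly resolved by the replicates. CG14100 had 87.6 ± 4.26% of the Ugalt signal (SD, n = 3, as for the other genes). CG11050 followed with 67.8 ± 7.68% and Art3 with 66.8 ± 10.4%. CenG1A had 60.5 ± 7.70%, PNPase 57.9 ± 8.33%, Lk6 57.6 ± 6.93% and CG1888 53.5 ± 7.74%. Ugalt is 100% in every list because it is the divisor, so its share has no range to compare with that of CG14100. CG14100 was below Ugalt in 3 of 3 replicates, but the genes were selected on signal. Undivided, the replicate signals of the 2 overlapped, at 645 to 714 and 545 to 655. The ranges of the shares separated CG14100 from CG11050, whereas those of the 5 later pairs of neighbours in this order overlapped. Compared within each replicate, Art3 exceeded CenG1A, CenG1A exceeded PNPase and Lk6 exceeded CG1888 in 3 of 3, while CG11050 exceeded Art3 and PNPase exceeded Lk6 in 2 of 3. Replicate 3 gave the lowest share for 7 of 7 genes, but all 7 shares have the same Ugalt divisor and are not separate observations.

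**Figure D3:**
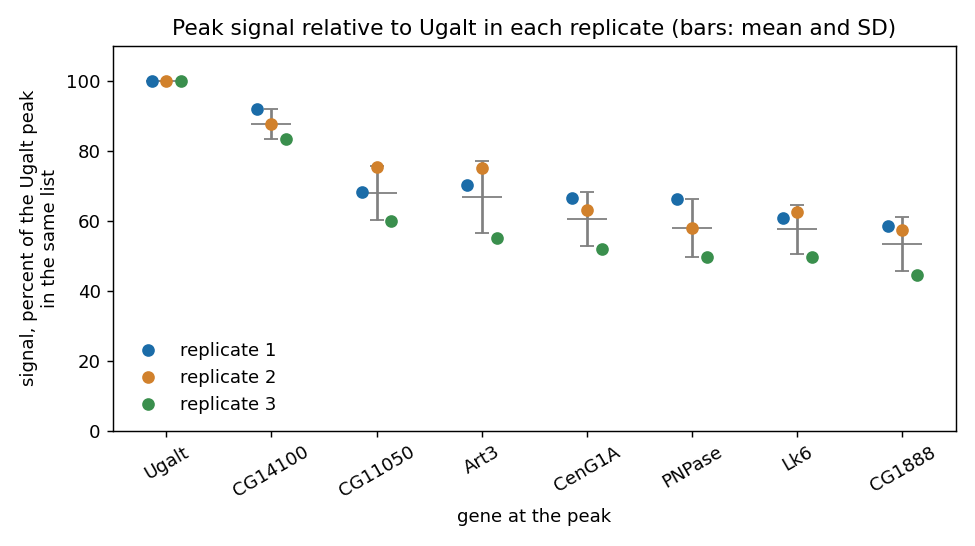
Peak signal as a percent of the Ugalt peak in the same replicate (vertical axis) for each gene, with replicates as coloured points and the mean and SD (n = 3) as bars. CG14100 stands above the following genes in each replicate, while CG11050 to CG1888 overlap between neighbours, and replicate 3 is the lowest point of every gene but Ugalt.

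Against the whole set, the 8 peaks had 7.27 to 13.6 times the median signal of 148, and the quartiles of the set were 113 and 217. The replicate ranks of the 8 ran from 1 to 18. The 15 peaks at or above CG1888 include 7 at other places. A peak of 1691 in an intron of ush, a cofactor of GATA factors, had its nearest TSS 1367 bp away, that of cbt. Peaks of 1579 at px, 1410 at Chro, which encodes the chromosomal protein Chromator, and 1368 at the Polycomb group gene ph-p came next. Peaks at mRpL41 and CHMP2B had signals of 1150 and 1133, and an intergenic peak of 1096 on 3R had lncRNA:CR45643 as its nearest TSS, 907 bp away. Just below CG1888, with its 1072, stood a peak of 1063 in otp, whose nearest TSS was that of Cib2, 4660 bp away.

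Weaker candidate regions, which need not be bound sites, lay around all 8 strong peaks. The authors label the candidate lists as peaks and background. In the pooled list 3800 of 30000 regions had the highest −log10 q, 3.88, and the lowest was 0.0215. Within 5 kb of the 8 summits the pooled list held 27 further candidates, 2 of them in the reproducible set. Their pooled ranks ran from 548 to 28718. A replicate summit within 200 bp was found for each of the 27 in at least 1 replicate, in 3 replicates for 9, in 2 for 11 and in 1 for 7. A replicate summit could count more than once, as at Lk6, where the candidates at 3552 and 3777 bp share 1 in replicate 3. The pooled numbers ran from 2 at Ugalt, Art3, PNPase and CG11050, through 3 at CG14100 and 4 at CenG1A, to 6 at Lk6 and CG1888. The median over all reproducible peaks was 4, with quartiles of 2 and 5, so Lk6 and CG1888 lay above the upper quartile. Over the 100 strongest peaks the median was 4, with quartiles of 2 and 6, so Lk6 and CG1888 were at the upper quartile of those and not above it.

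By replicate the numbers varied. Ugalt had 1, 3 and 3 weaker candidates in replicates 1 to 3, CG14100 had 4, 2 and 2, and Art3 had 1, 3 and 4. CenG1A had 5, 6 and 6, PNPase 3, 1 and 1, and CG11050 4, 3 and 3. Lk6 had 9, 5 and 6 and CG1888 had 8, 5 and 5, the highest counts in replicate 1. The set medians were 4, 4 and 3.

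Most of these candidates were small beside the peak. The strongest pooled one had 3.50% of the peak's signal at Ugalt, 2.53% at CG14100, 3.05% at Art3, 2.74% at PNPase, 6.02% at Lk6 and 7.56% at CG1888. The exceptions were the genes with a second reproducible peak. At CenG1A a peak 4420 bp from the summit, 4316 bp inside the gene and intronic, had a signal of 278, or 22.9% of the main one, at rank 548. It ranked 676, 486 and 454 in the replicates, with signals of 103, 96.5 and 83.6. At CG11050 the promoter peak described above ranked 2300, 958 and 4804 in the replicates, with signals of 54.4, 70.7 and 23.5, highest in replicate 2 and lowest in replicate 3.

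CenG1A also held another reproducible peak, of signal 125 and rank 2369, in an intron with its summit at 13876904, 2053 bp upstream of an internal TSS. At the genes other than CenG1A and CG11050 the next reproducible summit was farther away than the 4420 bp and 1862 bp at those 2. The next reproducible summit was 39404 bp away from Ugalt, 21676 bp from CG14100, 10419 bp from Art3, 9246 bp from PNPase, 13178 bp from Lk6 and 5719 bp from CG1888. The set median of this distance was 5740.5 bp, with quartiles of 1831 and 14629.8 bp. Only Ugalt and CG14100 lay above the upper quartile, and CG1888 was just below the median.

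**Figure D4:**
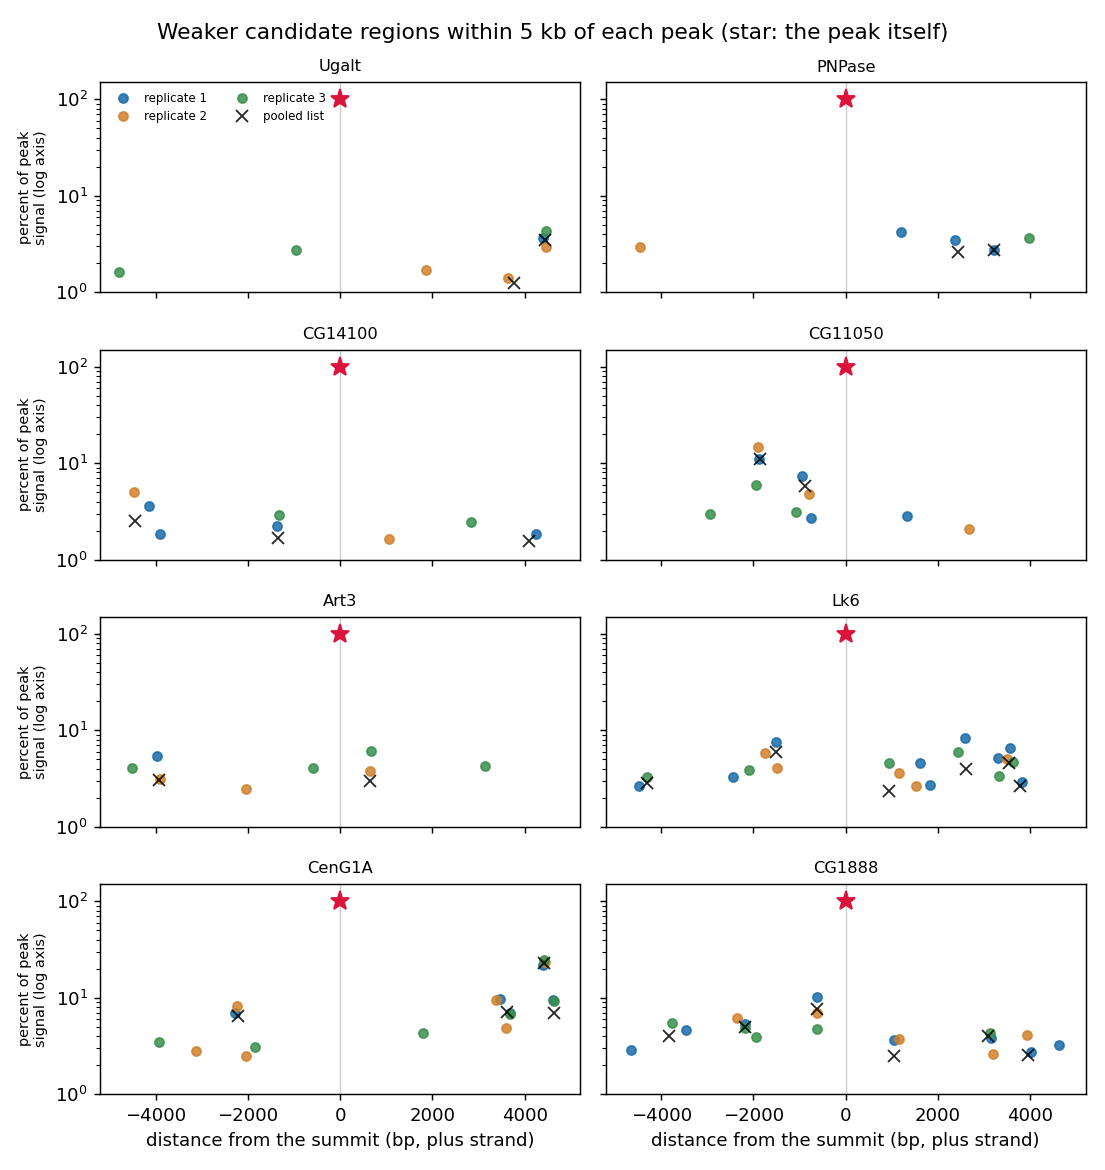
Weaker candidate regions within 5000 bp of each strongest peak (star), by distance from its summit (horizontal axis, bp, plus strand) and signal as a percent of that peak in the same list (vertical log axis). Coloured points are replicates and crosses the pooled list; the peak of 22.9% at CenG1A and that of 11.1% at CG11050 are the highest crosses.

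Relatives of 5 of the genes were examined as lists, and a gene was called occupied when any of its TSSs had a reproducible summit within 500 bp. Of all protein-coding genes, 15.8% were occupied. Among the relatives of Ugalt, nucleotide sugar transporters and related carriers, 2 of 7 others were occupied, senju with a signal of 242 and meigo with 118. Counting only peaks among the strongest regions of the remaining replicates, meigo dropped out without replicate 2 and without replicate 3, which left 1 of 7. Of 8 other arginine methyltransferases 1 was occupied, Art8 with 147. Of 6 other GTPase-activating proteins for Arf 1 was occupied, ArfGAP3 with 119, and by the same count 0 without replicate 1 or without replicate 2.

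Among 15 other genes of mitochondrial RNA metabolism, 2 were occupied. They were SLIRP2, with a signal of 731 at rank 50, and SLIRP1, with 195, whose products are RNA-binding proteins related to the mammalian mitochondrial protein SLIRP. The Lk6 list holds cap-binding proteins along with rl, eIF4G1, eIF4G2, eIF4A and Thor. Of its 12 genes other than Lk6, 2 were occupied. They were eIF4EHP, a cap-binding repressor of translation, with 447, and Thor, the eIF4E-binding protein, with 130. eIF4E1 itself, the substrate of Lk6, was not occupied. Together 8 of 48 relatives were occupied, against 15.8% of all protein-coding genes. The lists are short, and a share near the background of all protein-coding genes is no result about them.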

How the data were processed

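The authors deposited region lists for each replicate, for the 3 replicates pooled, and a reproducible set derived with the irreproducible discovery rate, per the file headers and notes beside them. Column 7 was taken as the authors' signal score. The deposited q-values are −log10 values, 3.88 for every peak of the set. The summit offset of each region, in bp, was used as deposited (unit: other). The aligner and the peak caller: not given in the sources used here. dm6 lists were used and dm3 lists were not.

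Regions were joined to Ensembl release 115 gene models on 6 arms, without 5809 transposable element entries (13945 protein-coding genes, 23581 distinct TSSs). Arm lengths were checked against the lists. Candidates of a replicate were matched to a peak by an overlap of at least 1 bp. The search for enriched words was tried on simulated sequences with planted words. Python 3.11.15, numpy 2.4.6, pandas 2.3.3 and matplotlib 3.10.9 were used. No read counts exist here, so depth and counting error are unknown, and the 3 replicates give the error.

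The genes, lists, motifs and alternatives were chosen with earlier results of these data known, and shared words and C or G runs after the windows were seen. Named are the 8 genes, genes within 500 bp of their summits, genes at the other peaks above the lowest member and at the next one below, up to 3 occupied genes per list, and words in at least 2 windows, of which those in 3 are printed. Chosen after their values were seen were eIF2Bbeta, Gprk2 and eIF4E1. Of 56 list names, 2 were synonyms of another and 1 was unmatched.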

Additional observations from a re-analysis of the deposited data

How the results depend on the processing

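Of 125 recomputed values, 97 moved by less than their spread or within 1.5 times, 28 moved further and 0 reversed. Among these values only the offsets carry a sign that could reverse. The weaker candidates, 27 within 5 kb, became 8 within 2 kb and 56 within 10 kb. Windows with the Initiator, 3, became 5 within 100 bp. Genes sharing the promoter, 2 at 500 bp, became 1 at 250 bp and 4 at 1000 bp. Windows with any of the 10 words, 2 of 8, became 1 with words from the 300 strongest other peaks, 7 with words of 7 (these sets were in 22.6% and 56.1% of all summit windows), 1 within 25 bp of the summit, and 1 with summits of replicate 2 or of replicate 3. The median A+T share, 69.3%, became 73.5% within 25 bp and 63.2% within 100 bp. The Lk6 offset, −967 bp with the pooled summit, became −974.7 bp with the mean of the replicate summits. With a replicate left out it was −972.5 to −976.5 bp. The PNPase offset, −72 bp, became −85 bp without replicate 1 and −82 bp without replicate 3. That of CG11050, 1039 bp, became 1028.5 bp without replicate 1. At Lk6 and PNPase the pooled summit lay nearer to the TSS than any replicate summit. Occupied Arf GTPase-activating proteins, 2 with CenG1A, became 1 with peaks over the median signal and 1 with peaks among the top regions in each of the 3 replicates, and ranged from 1 to 2 with a replicate left out (1 without replicate 1 and 1 without replicate 2). Arginine methyltransferases, 2 with Art3, became 1 with peaks over the median signal. Nucleotide sugar transporters and related carriers, 3 with Ugalt, ranged from 2 to 3 with a replicate left out. The cap binding list, at 2, became 1 at 250 bp and 1 with peaks over the median signal. The shared words and the C or G run were added after seeing the data; within 25 bp AAAATTAA was in 1 window and the run in 0. For the changes listed, the cause was not tested, other than that wider and narrower limits admit more and fewer sites. No paired analysis was possible because there is 1 group. The candidate lists hold 30000 regions for the pool and for replicates 1 and 2, and 29608 for replicate 3.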
